A study of Mus musculus with 8 samples.

Results

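The cytosolic ribosomal protein genes were taken by symbol, as Rpl or Rps followed by a number and at most a short ending, together with Rpsa, Rplp0, Rplp1 and Rplp2, without Rpl36al, S6 kinase genes, pseudogenes named as such and mitochondrial ribosomal protein genes. The rule found 82 of the 17264 genes listed, of which 51 belong to the large and 31 to the small subunit, and 6 (Rpl3l, Rpl7l1, Rpl10l, Rpl22l1, Rpl39l and Rps27l) are paralogs of core members. Their levels were read in inguinal white adipose tissue (iWAT), a subcutaneous fat depot, by RNA-seq, which counts transcripts, and by Ribo-seq, which counts the fragments that ribosomes protect from nuclease. Control mice (Y1CTL, Ythdf1 flox/flox) were compared with adipose conditional knockout mice (Y1cKO, Ythdf1 flox/flox with Adipoq-Cre), which lose exon 4 of Ythdf1, a reader of N6-methyladenosine in mRNA. The mice were C57BL/6, 9 weeks old, and were kept at 4 °C for 7 days in both genotypes. Adipoq-Cre is active in adipocytes, whereas the libraries hold all cells of the depot. There were 2 libraries of each genotype and assay, and the labels do not say that each came from a separate animal, so that every p-value is set against the spread of these libraries alone, which may be technical.

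Each ribosome carries about equal amounts of its proteins, and their mRNAs are among the most abundant of most cells. Their transcripts begin with a C followed by a run of pyrimidines, the terminal oligopyrimidine (TOP) motif, through which the kinase mTORC1 and the binding protein LARP1 set how strongly these mRNAs are translated. Many of the genes have processed pseudogene copies, and RefSeq names at least 1 pseudogene after 62 of the members, 318 in all.

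RefSeq windows of the promoter (GRCm38.p6, 250 bases before the annotated start and 50 from it on) were at hand for 62 of the 82 genes. A C at an annotated start followed by at least 4 further C or T was found for 12 of them, or 19.4%, against 813 of all 27025 genes with a window, or 3.01%. The sequences of 8 are given because they include the members at the ends of the footprint range described below (Rps15a, Rpl35 and Rps18), the S6 kinase substrate Rps6 and the stalk gene Rplp2. Each runs from 10 bases before the annotated start, 5′ to 3′ on the strand of the gene, and capitals mark the pyrimidine run from the start.
Rps6, chr4:86857348-86857377, minus strand: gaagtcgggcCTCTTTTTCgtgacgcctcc
Rps15a, chr7:118116128-118116157, minus strand: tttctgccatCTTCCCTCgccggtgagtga
Rps18, chr17:33955646-33955675, minus strand: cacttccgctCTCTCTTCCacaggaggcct
Rpl15, chr14:18270967-18270996, minus strand: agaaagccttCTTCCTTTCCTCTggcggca
Rpl28, chr7:4792955-4792984, plus strand: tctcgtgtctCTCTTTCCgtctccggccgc
Rpl35, chr2:39005112-39005141, minus strand: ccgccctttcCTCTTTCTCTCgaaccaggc
Rpl38, chr11:114668570-114668599, plus strand: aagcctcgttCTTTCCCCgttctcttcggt
Rplp2, chr7:141447641-141447670, plus strand: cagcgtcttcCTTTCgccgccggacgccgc

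The run was 13 bases long in Rpl15, 11 in Rpl35 and 5 in Rplp2. The sequence CCGGAA, searched on both strands, was present in the windows of 34 members (54.8%) and of 16.7% of all genes. The sequence AAGATGG, also searched on both strands, was present in 9 members (14.5%) and in 7.28% of all genes. Its first bases can overlap the end of the former, and the other strand of the former can overlap a pyrimidine run. These are matches of letters in a window and were not tested as sites. The 11 members with the pyrimidine run that had values in both assays and the 47 others with a window had median log2 Y1cKO to Y1CTL differences of 0.20 and 0.22 by Ribo-seq. A run was counted only from a C at the annotated start itself. The 47 others may thus also have TOP transcripts that start at another base, and the split does not separate TOP from other mRNAs.

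The RNA-seq libraries held 3958284 and 4963613 reads in Y1CTL and 12211351 and 16429015 reads in Y1cKO, and the Ribo-seq libraries 7364523 to 11862838 reads. Adipocyte marker genes, 15 in all, were present in all 8 libraries. Their summed level was lowest in Y1CTL replicate 2 by RNA-seq, at 12953 RPKM against 20919 to 26957 RPKM, and highest in Y1CTL replicate 2 by Ribo-seq, at 95859 RPKM against 63385 to 74439 RPKM. The libraries also differed in other cells. A list of 26 lymphocyte markers, with genes of T cells, of B cells and of lymph nodes, had a median of 14.5 RPKM (reads per kilobase of gene, scaled to the reads of the library) in Y1CTL RNA-seq replicate 2 and of 0.0781 to 0.202 RPKM in the other 3 RNA-seq libraries, in which 2 to 13 of the 26 were at 0. In the 4 Ribo-seq libraries its median was 28.0 to 34.3 RPKM, although per the labels both assays drew on the same lysis of the tissue. Skeletal muscle genes, 23 in all, had a median of 10.6 RPKM in Y1cKO RNA-seq replicate 1 and of at most 0.224 RPKM in every other library. Ythdf1 itself was at 8.01 and 11.5 RPKM in Y1CTL and 7.17 and 7.98 RPKM in Y1cKO by RNA-seq, and at 17.3 and 16.0 RPKM against 12.7 and 15.7 RPKM by Ribo-seq.

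The 82 genes took a larger share of the Ribo-seq reads than of the RNA-seq reads. In RNA-seq they held 0.691% of the reads in Y1CTL replicate 1 (95% Wilson interval 0.683 to 0.699), 1.08% in Y1CTL replicate 2 (1.07 to 1.09), 0.889% in Y1cKO replicate 1 (0.884 to 0.895) and 0.794% in Y1cKO replicate 2 (0.789 to 0.798). In Ribo-seq the shares were 1.54% (1.53 to 1.54) and 1.21% (1.20 to 1.22) in Y1CTL and 1.66% (1.66 to 1.67) and 1.5% (1.49 to 1.5) in Y1cKO. The intervals cover counting error only. The highest RNA-seq share of reads was below the lowest Ribo-seq share, and within each assay the genotypes overlapped. As a share of summed RPKM, in which reads are divided by length, the assays overlapped. That share was 1.78% to 2.66% by RNA-seq and 2.59% to 3.37% by Ribo-seq. The mean share in Y1cKO was 1.15 times that in Y1CTL by Ribo-seq and 0.950 times by RNA-seq. With any 1 library left out, these ratios ranged from 1.03 to 1.31 and from 0.778 to 1.22. With 2 libraries against 2 an exact two-sided permutation test cannot pass 0.05, and none was run on the shares. Large subunit genes held 0.776% to 1.05% and small subunit genes 0.432% to 0.609% of the Ribo-seq reads.

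Ribo-seq values, divided by coding length, were high and narrow for most of the core genes. Over the 76 core members, the mean of the 4 Ribo-seq libraries had a median of 382 RPKM with quartiles at 269 and 542 RPKM, and 67 members had at least 100 RPKM. RNA-seq values, divided by transcript length, had a median of 112 RPKM with quartiles at 74.9 and 177 RPKM. At the top by Ribo-seq were Rpl39, a protein of the exit tunnel, with 988 and 913 RPKM in Y1CTL and 1200 and 1220 RPKM in Y1cKO, and Rpl38, with 1103 and 769 RPKM in Y1CTL and 1005 and 943 RPKM in Y1cKO. Rpl11, which with Rpl5 can bind the p53 regulator Mdm2, had 915, 709, 983 and 882 RPKM in the same order of libraries. Rps29 and Rpl27 completed the highest 5. Among the highest by RNA-seq were Rplp1, Rpl23a, Rps15 and Rpl19, and only the order within each assay is compared here, since the denominators differ. Rplp1, an acidic protein of the stalk that recruits elongation factors, had 289 and 516 RPKM in Y1CTL and 425 and 327 RPKM in Y1cKO by RNA-seq. Across the 78 members with values in both assays, the Spearman correlation of mean Ribo-seq with mean RNA-seq RPKM was 0.373. It was -0.248 between Ribo-seq RPKM and coding length and -0.265 between RNA-seq RPKM and transcript length, over genes that share libraries and are not independent.

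A few core genes lay far below the others, although their proteins are parts of the same particle. Rpl10, which joins the large subunit late in its maturation, and Rps10 had no row in any of the 4 Ribo-seq tables, which hold no value of 0, and were set to 0 there. By RNA-seq Rpl10 had 0, 1, 8 and 15 reads in Y1CTL replicates 1 and 2 and Y1cKO replicates 1 and 2, and Rps10 had 1, 0, 7 and 2 reads. A missing row or a low value does not show that the tissue lacks the transcript. Rpl35 had 2.28 and 1.47 RPKM in Y1CTL and 2.28 and 2.10 RPKM in Y1cKO by Ribo-seq, but 23.8, 39.2, 37.1 and 27.8 RPKM by RNA-seq. Rpl13a was low in both assays, with 8.44, 5.80, 6.73 and 6.18 RPKM by Ribo-seq and 9.41, 5.39, 5.16 and 7.96 RPKM by RNA-seq. Rps23, whose product sits in the decoding region, had 13, 10.1, 18.4 and 10.6 RPKM by Ribo-seq and 5.12, 6.88, 8.22 and 11.2 RPKM by RNA-seq. Together with Rpl9 (26.2 to 32.3 RPKM) and Rps18 (29.2 to 51.2 RPKM), these made 7 core members with a mean under 50 RPKM by Ribo-seq. The number of named pseudogenes was 6 for Rpl10, 4 for Rps10, 1 each for Rpl35 and Rpl13a, 2 for Rps23, 9 for Rpl9 and 5 for Rps18, whereas Rps12 had 24 and Rpl31 had 23. Across the 78 members the Spearman correlation of the number of pseudogenes with the mean RPKM was 0.112 by Ribo-seq and 0.205 by RNA-seq. How reads that map to several places were counted is not given in the sources used here, so that the level of single members is uncertain, and its part in these low values was not tested.

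**Figure D1:**
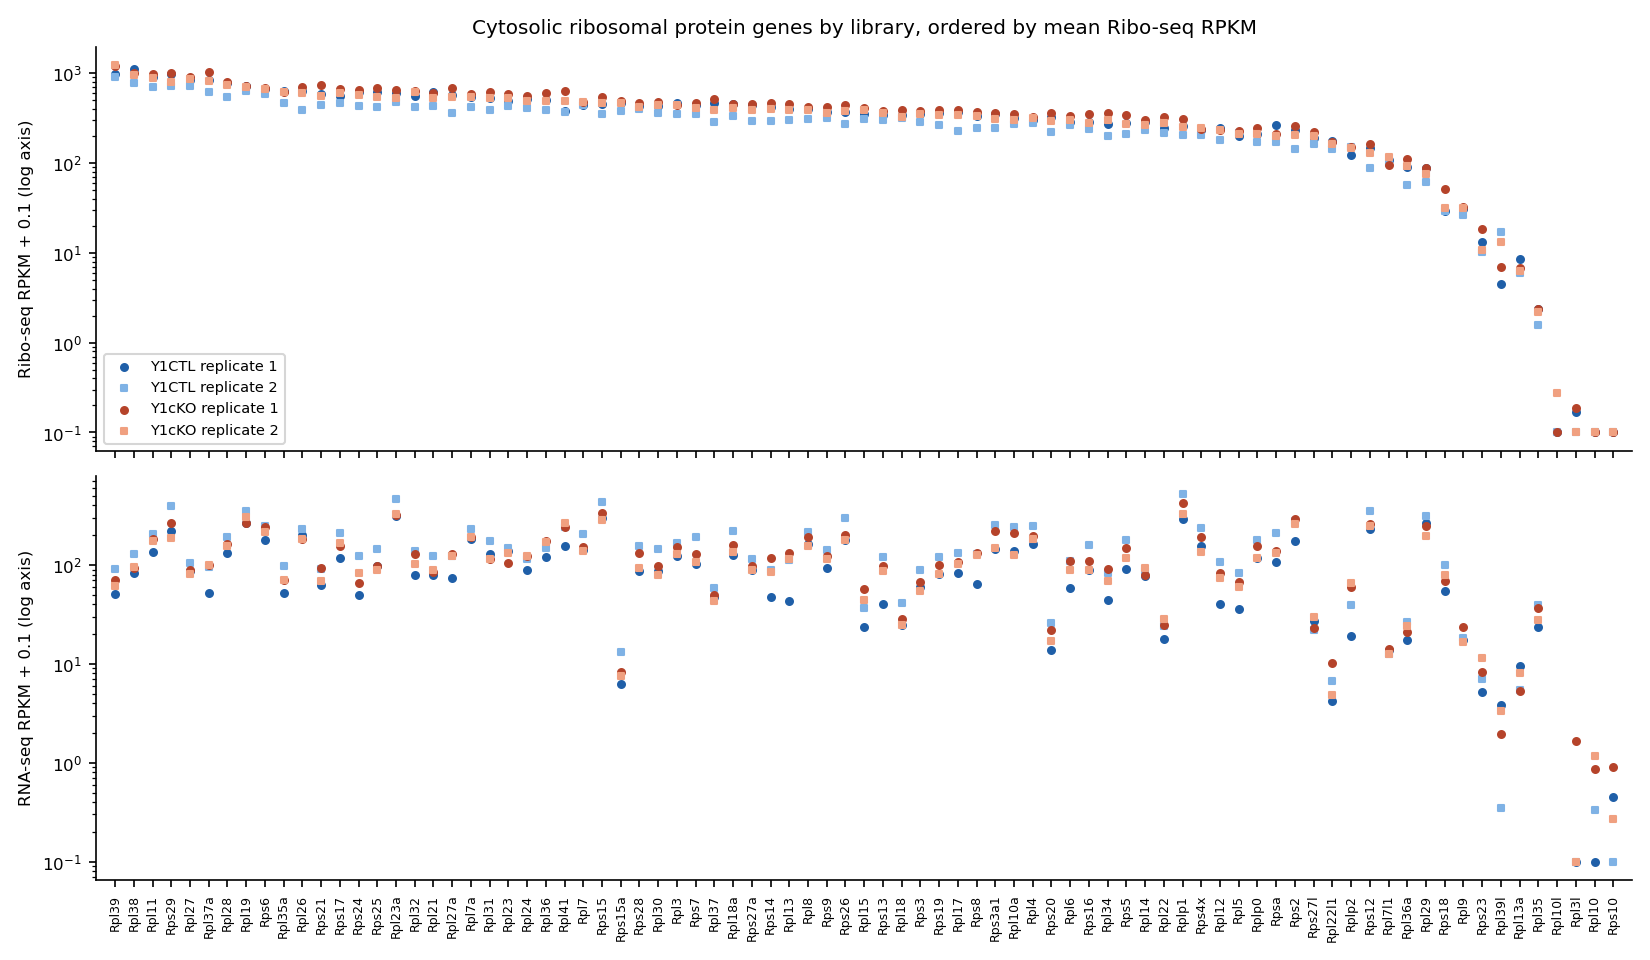
RPKM plus 0.1 of 81 of the genes in the 4 Ribo-seq (top) and 4 RNA-seq (bottom) libraries on log axes, with genes ordered by mean Ribo-seq RPKM; 1 point is 1 library. Of the core genes, 67 lie at or above 100 RPKM by Ribo-seq, and the right end holds the 7 low core members and the paralogs Rpl39l, Rpl10l and Rpl3l.

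By Ribo-seq all 6 paralogs lay below the lower quartile of the core members. Rpl3l, the form of Rpl3 in striated muscle, was above 0 by RNA-seq only in Y1cKO replicate 1, at 1.55 RPKM, the library with the high skeletal muscle genes. Rpl10l, a testis form of Rpl10, is in no RNA-seq table and had 0.172 RPKM in 1 Ribo-seq library. Rpl39l, a form of Rpl39 known from testis, had 4.41 and 16.9 RPKM in Y1CTL and 6.87 and 13 RPKM in Y1cKO by Ribo-seq, a wider spread between replicates than between genotypes. Rpl22l1, which can replace Rpl22, had 4.12, 6.57, 10.1 and 4.74 RPKM by RNA-seq and 176, 144, 169 and 163 RPKM by Ribo-seq. Rps27l had 21.7 to 29.6 RPKM by RNA-seq and 162 to 221 RPKM by Ribo-seq, and Rpl7l1 12.4 to 14.1 RPKM and 96.0 to 116 RPKM. Rps27 itself was not analysed here.

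Within each assay 1 library was the lowest and 1 the highest for most of the genes. Of the 78 members tested by Ribo-seq (mean of at least 0.5 RPKM), 74 were lowest in Y1CTL replicate 2 and 62 were highest in Y1cKO replicate 1. Among all 12602 genes tested, 28.6% were lowest in the former and 18.6% highest in the latter. Y1CTL replicate 2 differed from replicate 1 by a median log2 of -0.36 over the members, with 75 of 78 below 0, against 0.01 over all genes. Y1cKO replicate 2 differed from replicate 1 by -0.17, with 72 of 78 below 0. By RNA-seq the order was another one. Of 79 members tested, 56 were highest in Y1CTL replicate 2 (22.9% of 12435 genes) and 55 were lowest in Y1CTL replicate 1 (34.2%). The 2 Y1CTL RNA-seq libraries differed by a median log2 of 0.61, or 1.53-fold, over the members, with 75 of 79 higher in replicate 2, against -0.01 over all genes. The Y1CTL RNA-seq library with the high lymphocyte markers was thus the one with the highest ribosomal protein transcripts, with the lowest adipocyte markers. It also had the highest summed level of a list of beige and brown adipocyte markers, at 3392 RPKM. In the other RNA-seq libraries that sum was 2046 RPKM (Y1CTL replicate 1), 498 RPKM (Y1cKO replicate 1) and 1728 RPKM (Y1cKO replicate 2). The part of all these cells in the result was not tested. Among the Ribo-seq libraries the lymphocyte list was lowest, at 28.0 RPKM, in the library where the footprints of the members were lowest, and so was the summed level of 20 beige and brown adipocyte markers, at 4816 RPKM against 9563 to 14922 RPKM in the others, while the adipocyte markers were highest there.

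**Figure D2:**
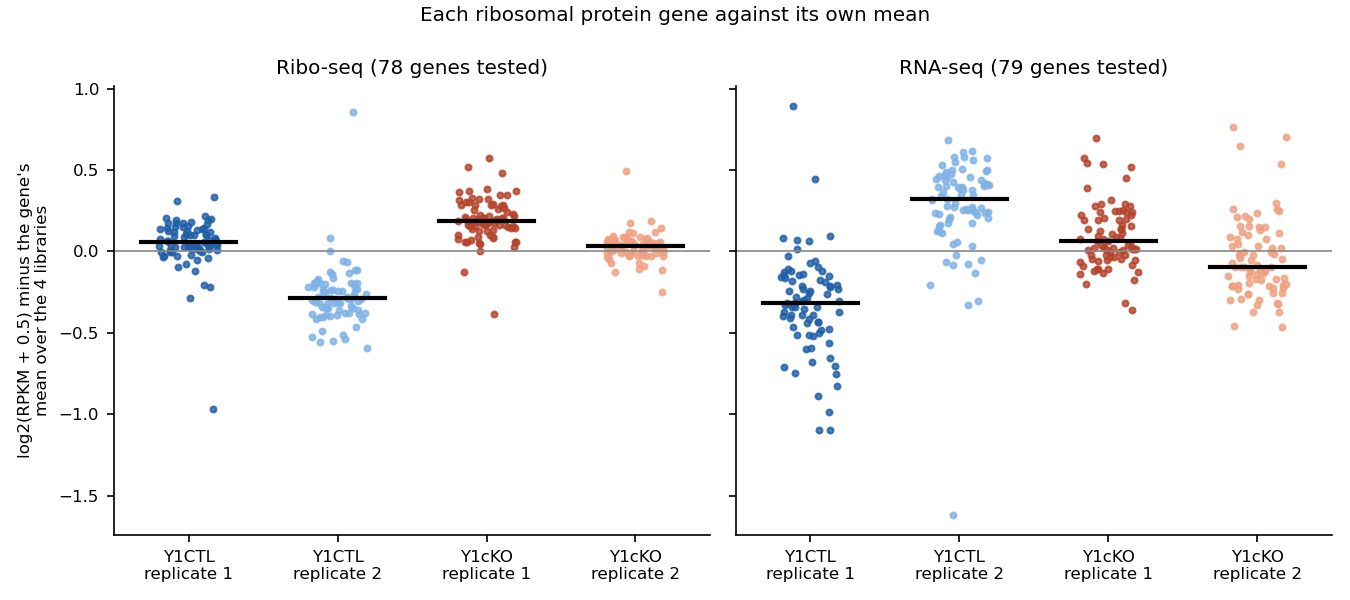
Log2(RPKM + 0.5) of each tested gene minus its mean over the 4 libraries of the assay, by library, for Ribo-seq (left, 78 genes) and RNA-seq (right, 79 genes); bars are medians over genes. Y1CTL replicate 2 lies lowest by Ribo-seq and highest by RNA-seq, 0.61 log2 above Y1CTL replicate 1.

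The first comparison asks whether footprints on these genes differ between Y1cKO and Y1CTL. Footprint levels were slightly higher in Y1cKO for nearly all of them, but no gene passed the threshold after adjustment. The log2 difference was above 0 for 76 of the 78 members, against 51.5% of all 12602 genes tested. The median was 0.21 over the members, or 1.16-fold, and 0.01 over all genes. With limma, 0 members passed an adjusted p of 0.05, as did 0% of all genes, and 3 members (Rpl22, Rpl34 and Rpl41) and 2.75% of all genes had an unadjusted p under 0.05. A voom fit on reads recovered from the RPKM also called 0 genes. Both Y1cKO libraries were above both Y1CTL libraries for 23 members (15.4% of all genes) and below both for 0 (14.1%). The shift rests on Y1CTL replicate 2. Without it the median was 0.05 and 50 of 78 members were above 0, and without Y1CTL replicate 1 the median was 0.40. Against Y1CTL replicate 1 alone, Y1cKO replicate 1 had a median log2 of 0.12 and Y1cKO replicate 2 one of -0.04. In bulk tissue, fewer cells of a type and less RNA per cell cannot be told apart.

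Among the stalk and the 5S-binding proteins the differences were small. Rplp0, the base of the stalk, had 212 and 171 RPKM in Y1CTL and 244 and 212 RPKM in Y1cKO by Ribo-seq, a log2 difference of 0.25 (SE 0.17). Rplp1 had 261, 203, 305 and 254 RPKM (0.28, SE 0.18). Rpl5 had 202, 213, 225 and 212 RPKM (0.07, SE 0.14). For all of these the highest Y1CTL library reached or passed the lower Y1cKO library. In the small subunit, Rps6, the substrate of the S6 kinases, had 661 and 590 RPKM in Y1CTL and 676 and 672 RPKM in Y1cKO (0.11, SE 0.16). Rps19, needed for maturation of the small subunit, had 362, 262, 385 and 338 RPKM (0.23, SE 0.20). Rps27a, made as a fusion with ubiquitin, had 440, 292, 457 and 394 RPKM (0.24, SE 0.23), and Rps3, which lines the channel where mRNA enters, had 352, 284, 381 and 350 RPKM (0.21, SE 0.17). In Rps6 both Y1cKO libraries were above both Y1CTL libraries, by less than the distance between the Y1CTL replicates. The small subunit had 29 of 30 tested members above 0 with a median of 0.25, and the large subunit 47 of 48 with a median of 0.20.

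The member with the largest Ribo-seq difference was Rpl41 (ENSMUSG00000093674), which encodes the smallest ribosomal protein. It had 374 and 367 RPKM in Y1CTL and 636 and 495 RPKM in Y1cKO, from 613, 373, 835 and 617 reads. The genotypes did not overlap, and the log2 difference of 0.60 (SE 0.18) had an adjusted p of 1.00 with limma. It ranged from 0.42 to 0.78 when any 1 library was left out. Next came Rpl36a with 91.2, 56.4, 110 and 92.6 RPKM (0.49, SE 0.24), Rpl34 with 274, 202, 361 and 302 RPKM (0.49, SE 0.20) and Rps18 with 29.4, 29.2, 51.2 and 31.3 RPKM (0.44, SE 0.24). For Rps18 it was 1 library, Y1cKO replicate 1, that stood above the other 3, and without it the difference was 0.10. Rpl22, the partner of Rpl22l1, had 245 and 213 RPKM in Y1CTL and 323 and 278 RPKM in Y1cKO (0.39, SE 0.16). At the other end were Rpl13a (-0.11, SE 0.22) and Rpsa (-0.04, SE 0.22), the only members below 0, then Rpl7l1 (0.02) and Rpl22l1 (0.06). Rpsa, also known as the laminin receptor, had 261 and 169 RPKM in Y1CTL and 211 and 197 RPKM in Y1cKO, so that both Y1cKO libraries lay between the Y1CTL libraries.

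Genes of the same machinery outside the symbol rule were compared in the same fit. Fau, a ubiquitin-like protein fused to a small subunit protein, had 476 and 369 RPKM in Y1CTL and 552 and 469 RPKM in Y1cKO by Ribo-seq (log2 0.28, SE 0.19). Rack1, the scaffold on the small subunit, had 337, 245, 323 and 299 RPKM (0.11, SE 0.19), and Rpl36al 355, 307, 349 and 395 RPKM (0.17, SE 0.16). Translation factors and other genes with TOP transcripts, 21 in all, had a median of 0.07 with 19 above 0. Ribosome biogenesis factors, which process ribosomal RNA and build the subunits, had a median of -0.10 with 12 of 36 above 0. The 16 regulators of TOP translation, with mTOR, its partners, Larp1 and S6 kinases, had a median of 0.07 with 10 above 0. Mitochondrial ribosomal protein genes had a median of 0.09 with 61 of 78 above 0. The lists of cell type markers were read in the same fit. Lymphocyte markers had a median of 0.25 with 25 of 26 above 0, and beige and brown adipocyte markers 0.28 with 13 of 19. Skeletal muscle genes had a median of 0.11 with 4 of 6 above 0, and adipocyte markers -0.05 with 4 of 15. A shift of this size was thus not particular to the ribosomal protein genes. With limma, 0 genes of these lists were called, and the lists were not compared with each other by a test.

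**Figure D3:**
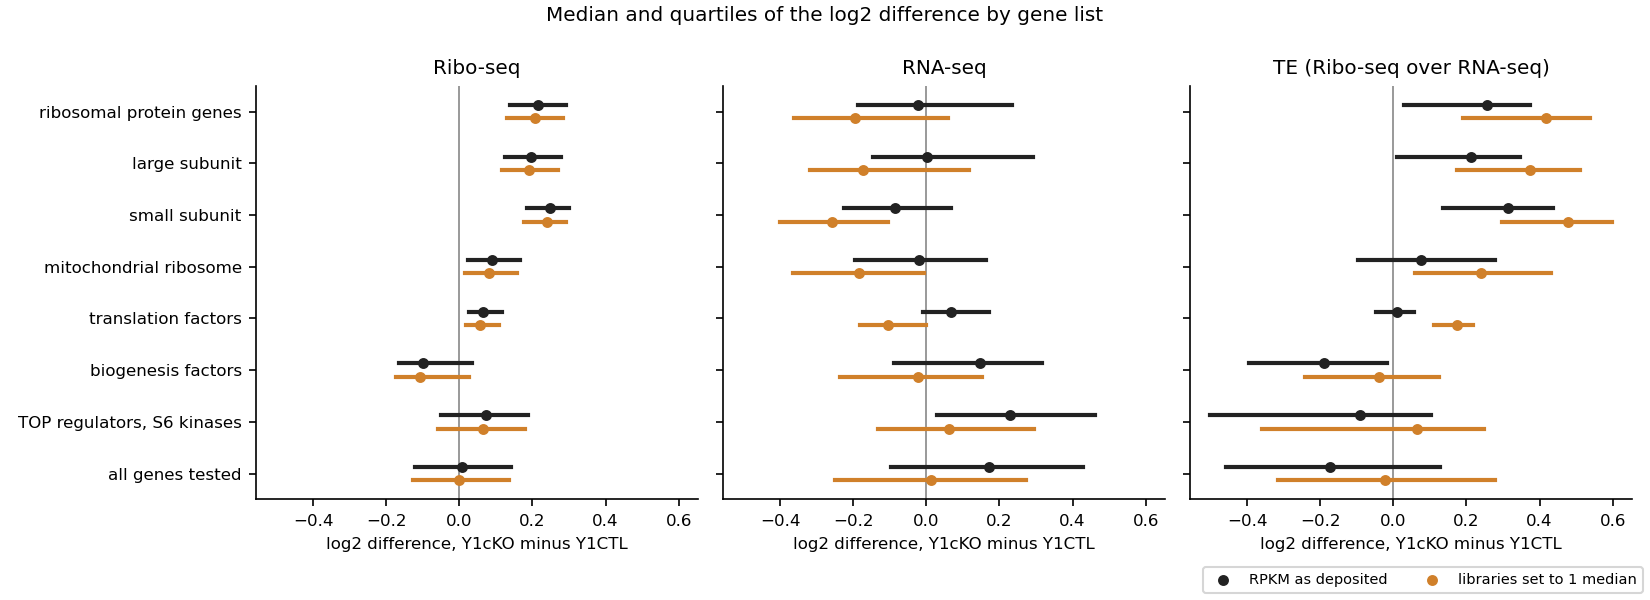
Median (point) and quartiles (line) over genes of the log2 Y1cKO minus Y1CTL difference for Ribo-seq, RNA-seq and TE, by gene list, with RPKM as deposited (black) and with the libraries set to 1 median (orange). The ribosomal protein genes lie at 0.21 by Ribo-seq and at -0.02 by RNA-seq, where all genes tested lie at 0.17.

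The second comparison asks whether their transcripts differ. By RNA-seq 37 members were above 0 and 42 below, whereas 67.2% of all 12435 genes were above 0, and the median was -0.02 over the members and 0.17 over all genes. With the libraries set to 1 median, 21 members were above 0 and 58 below, and the median of the members was -0.20 against 0.01 over all genes, of which 51.3% were above 0. The directions of single members below are those of RPKM as deposited. With limma, 0 of the 79 members passed the adjusted threshold, as did 0% of all genes, and voom called 0. An unadjusted p under 0.05 was found for Rpl15, Rplp2 and Rps23 among the members and for 11.8% of all genes. Both Y1cKO libraries were above both Y1CTL libraries for 10 members (36.9% of all genes) and below both for 4 (10.7%), which were Rpl23, Rpl26, Rpl29 and Rpl31. The sign of the median depended on 1 control library. Without Y1CTL replicate 2, the library with the lymphocyte markers, it was 0.32 with 68 of 80 above 0, and without Y1CTL replicate 1 it was -0.33 with 21 of 80 above 0. Against Y1CTL replicate 1 alone, Y1cKO replicates 1 and 2 had medians of 0.37 and 0.18 over the members and 0.21 and 0.12 over all genes. Against Y1CTL replicate 2 alone, the medians were -0.24 and -0.43 over the members and 0.21 and 0.13 over all genes.

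Apart from Rpl10, which had at most 15 reads in a library, the largest RNA-seq difference was that of Rplp2, the partner of Rplp1 in the stalk. It had 19.1 and 39.1 RPKM in Y1CTL and 60.5 and 65.2 RPKM in Y1cKO. The genotypes did not overlap (log2 1.18, SE 0.34, adjusted p = 0.402 with limma), and without Y1CTL replicate 2 the difference was 1.69. By Ribo-seq Rplp2 had 123, 150, 151 and 146 RPKM (0.13, SE 0.15). Rpl13 had 43.1 and 113 RPKM in Y1CTL and 133 and 114 RPKM in Y1cKO (0.82, SE 0.45, adjusted p = 0.5 with limma), and without Y1CTL replicate 2 the difference was 1.51. Only Y1CTL replicate 1 stood apart for Rpl13, and Y1CTL replicate 2 lay just under Y1cKO replicate 2. Rpl15 had 23.4, 36.8, 57.5 and 44.4 RPKM (0.77, SE 0.27, adjusted p = 0.404 with limma). Rpl10 had a log2 difference of 1.22.

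The lowest RNA-seq differences were those of Rps29, Rpl29, Rpl31 and Rps25. Rps29 had 223 and 395 RPKM in Y1CTL and 265 and 187 RPKM in Y1cKO (log2 -0.41, SE 0.35, adjusted p = 0.635 with limma). Rpl29 had 265, 316, 249 and 195 RPKM (-0.39, SE 0.24), and Rpl31 had 129, 174, 116 and 114 RPKM (-0.38, SE 0.22). In both of these genes the Y1cKO libraries were below the Y1CTL libraries. Rps25 had 97.3, 146, 97.4 and 88.1 RPKM (-0.36, SE 0.25), so that Y1CTL replicate 1 and Y1cKO replicate 1 were level. These differences changed with the library left out. Without Y1CTL replicate 2 they were -0.001 for Rps29, -0.27 for Rpl29, -0.17 for Rpl31 and -0.07 for Rps25. Without Y1CTL replicate 1 they were -0.83, -0.52, -0.60 and -0.66. Without Y1cKO replicate 2 they were -0.16 for Rps29 and -0.22 for Rpl29, and without Y1cKO replicate 1 they were -0.66 and -0.57. Among the TOP regulators, 12 of 16 were above 0 by RNA-seq, against 67.2% of all genes, with a median of 0.23 (0.06 with the libraries set to 1 median). The 4 below 0 were Mtor (-0.20), Deptor (-0.15), Eif4e (-0.10) and Larp4 (-0.09). Eif4ebp1, the mTORC1 target that holds back cap-dependent initiation, had 28.2 and 20.6 RPKM in Y1CTL and 49.1 and 57.7 RPKM in Y1cKO (1.13, SE 0.22, adjusted p = 0.401 with limma). Larp1 had 26.3 and 22.5 RPKM in Y1CTL and 38.1 and 34.2 RPKM in Y1cKO (0.56, SE 0.18, adjusted p = 0.402 with limma). By Ribo-seq their differences were 0.05 (SE 0.15) and -0.04 (SE 0.15). These genes were picked after their values were seen.

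The third comparison is that of translational efficiency (TE), footprints relative to transcripts, for which the interaction of assay and genotype was tested in 1 fit of the 8 libraries. For 61 of 78 members the TE difference was above 0, against 34.7% of 11792 genes, with a median log2 of 0.26 over the members and -0.17 over all genes. With the libraries set to 1 median, 69 of 78 members were above 0 with a median of 0.42, and 47.6% of all genes were above 0 with a median of -0.02, so that members and all genes shifted alike. With limma, 0 members and 0% of all genes were called, voom called 0, and 1 member (Rplp2) and 8.66% of all genes had an unadjusted p under 0.05. The median was -0.07 with 33 of 78 above 0 without Y1CTL RNA-seq replicate 2, so that the direction over the members rested on that library too. This comparison shares its libraries with those of Ribo-seq and RNA-seq. Rpl31 (0.70, SE 0.32), Rps26 (0.65, SE 0.39), Rpl26 (0.63, SE 0.35) and Rps25 (0.61, SE 0.37) had the highest TE differences, with adjusted p of 0.563 to 0.606 in limma. Rpl26 had 629, 386, 707 and 596 RPKM by Ribo-seq and 201, 230, 184 and 182 RPKM by RNA-seq. Rps26 had 370, 274, 447 and 381 RPKM by Ribo-seq and 179, 300, 203 and 181 RPKM by RNA-seq. In both genes the Y1CTL replicate 2 libraries had the lowest Ribo-seq and the highest RNA-seq value. Rplp2 had the lowest TE difference at -1.06 (SE 0.43, adjusted p = 0.563 with limma), followed by Rpl39l (-0.61, SE 1.23), Rpl13 (-0.56, SE 0.57) and Rpl15 (-0.50, SE 0.34).

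The last comparison sets footprints against transcripts over all 8 libraries, after scaling to the same median, whatever the genotype. Of the 78 members, 52 were called higher by Ribo-seq than by RNA-seq with limma (39.4% of 11792 genes) and 8 lower (31.5%). The median log2 ratio was 0.88 over the members and 0.14 over all genes. Mitochondrial ribosomal protein genes had 70 of 78 called higher, with a median of 1.44. Large subunit genes had 34 of 48 called higher and 4 lower, and small subunit genes 18 of 30 and 4. The members with the pyrimidine run at the annotated start had a median of 1.27 (11 genes) and the other members with a window, which may also have TOP transcripts, 0.98 (47 genes). With RPKM as deposited, 69 members were higher and 5 lower, where 62.9% of all genes were higher and 14.3% lower. With RNA-seq divided by the coding length like Ribo-seq, 59 members were higher and 6 lower, with a median of 1.07, against 39.9% and 29% of 12195 genes and a median of 0.21. The lymphocyte list had 23 of 25 genes called higher with a median of 3.75, and the part of cells unequally present in the libraries of the 2 assays was not tested.

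The ratio varied widely between members. Rps15a (log2 4.79, SE 0.22, adjusted p = 6.94e-07 with limma) had 377 to 492 RPKM by Ribo-seq and 6.20 to 13.1 RPKM by RNA-seq. Its listed transcript is 5179 bases long with a coding length of 390, and with RNA-seq divided by the coding length the ratio was 2.2. Rps20 (3.06) and Rpl18 (2.67), with listed transcripts of 3706 and 2989 bases, came to 0.79 and 1.36 by that measure. Rpl22l1 (3.80, SE 0.22) and Rpl39 (3.11, SE 0.20), with transcripts of 552 and 612 bases, came to 4.29 and 2.2. At the low end, Rpl35 was at -4.44 (SE 0.19, adjusted p = 5.63e-07 with limma), followed by Rpl29 (-2.58, SE 0.19), Rps18 (-1.97, SE 0.24), Rps12 (-1.94, SE 0.23) and Rplp1 (-1.46, SE 0.21). The Rpl35 ratio rests on only 10 and 4 Ribo-seq reads in Y1CTL and 8 and 7 in Y1cKO. Rpl29 had 61.1 to 88.5 RPKM by Ribo-seq and 195 to 316 RPKM by RNA-seq, and Rps12 had 87.5 to 164 RPKM and 231 to 349 RPKM. These 5 stayed below 0 with the coding length in both assays, at -4.82, -2.11, -1.19, -0.91 and -0.92. Rps15a and Rpl35, with the highest and the lowest ratio of the members, both had the pyrimidine run. Their sequences were printed above because of these ratios. Across the 78 members the Spearman correlation of the ratio with coding length was -0.416, and -0.177 with the coding length in both assays.

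**Figure D4:**
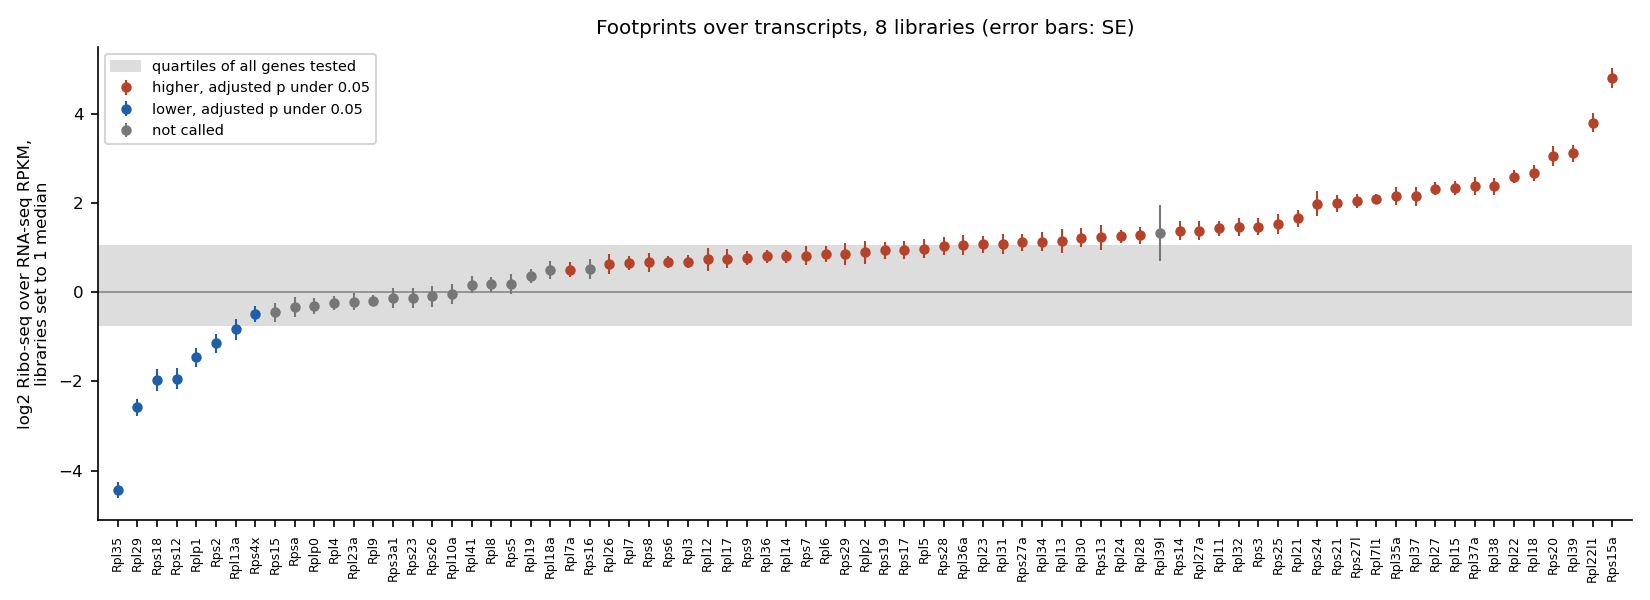
Log2 ratio of Ribo-seq to RNA-seq RPKM with its standard error for 77 of the genes tested, from all 8 libraries scaled to the same median; red and blue mark genes called higher and lower with limma, and the grey band holds the quartiles of all genes tested. The genes run from -4.44 (Rpl35) to 4.79 (Rps15a), and those called higher outnumber those called lower.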

How the data were processed

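Per the labels and methods, iWAT was lysed, part was used for RNA-seq and the rest was digested with RNase I for Ribo-seq. The authors trimmed adaptors, masked poor sequence, aligned to mm8 by HISAT2 2.2.1 and deposited RPKM values for 1 transcript per gene. The processing notes also name DESeq2, without its role. For the counter, the annotation release and the treatment of multiply mapped reads, nothing is given in the sources used here. RPKM used transcript length in RNA-seq and coding length in Ribo-seq, and at least 99.93% of values were whole reads within 0.01, from which reads and depth were recovered. Genes missing from a Ribo-seq table were set to 0.

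Log2(RPKM + 0.5) was fitted with limma 3.58.1 (R 4.3.3, intensity trend) for genes averaging at least 0.5 RPKM, with Benjamini-Hochberg adjustment across all genes of the fit and a threshold of 0.05. Replicates of a group differed beyond counting noise (chi-square per degree of freedom 12.3 to 36.2), and none was merged. Fold changes of low genes are understated on this scale. TE was the interaction of assay and genotype. Footprints over transcripts was the assay term with genotype as covariate. SE is the moderated standard error. The tests were run on simulated data with independent noise of the same spread for all genes of an assay. Those data held no shifts shared by many genes of a library, so that they do not show how the tests behave under such shifts. Alternatives covered pseudocount, filter, scaling, trend, voom, lengths, each library left out and a replicate block. The members and gene lists were chosen with earlier results of these data known. Genes named were those of special role, the 5 highest and lowest by level and by footprints over transcripts, the 4 highest and lowest differences otherwise, and Fau, Rack1 and Rpl36al, and genes of the printed sequences or of counts of at most 5 were added after their values were seen. A few genes that this rule takes are not reported here. The Y1cKO RNA-seq columns carry the other replicate number than the labels, which were followed. Python 3.11.15, pandas 2.3.3, scipy 1.17.1 and matplotlib 3.10.9 were used.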

Additional observations from a re-analysis of the deposited data

How the results depend on the processing

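Leaving out each library in turn gave these ranges. For Ribo-seq the median of the members was 0.045 to 0.40 and 50 to 76 were above 0. For RNA-seq the median was -0.33 to 0.32 and 21 to 68 members were above 0. For TE 33 to 70 were above 0, with a median of -0.07 to 0.59. The mean share of reads in Y1cKO over that in Y1CTL was 1.03 to 1.31 by Ribo-seq. By RNA-seq it was 0.778 to 1.22 and so changed direction. Single genes that changed sign were, by Ribo-seq, Rpl13a (-0.36 to 0.14), Rpl22l1 (-0.078 to 0.20), Rpl7l1 (-0.12 to 0.15) and Rpsa (-0.36 to 0.27) and, for TE, Rpl13 (-1.25 to 0.13) and Rpl39l (-1.87 to 0.64). The values without a library come from fewer libraries, with the lone library assumed to vary like the others. With the libraries set to 1 median, 21 members were above 0 by RNA-seq. With RPKM as deposited, footprints over transcripts gave 5 lower calls and a median of 1.75, where that of all genes moved from 0.14 to 0.94. With a replicate block 49 members were called higher and 7 lower in footprints over transcripts (37.9% and 29.9% of all genes), and with crossed numbers 54 and 8 (39.5% and 30.9%). The block gave 0 calls among members in the other comparisons. Over all genes, deviations of same-numbered libraries correlated by 0.033 (Ribo-seq) and -0.021 (RNA-seq) between genotypes and by -0.138 (Y1CTL) and -0.237 (Y1cKO) between assays, and over the members by 0.62, -0.439, -0.523 and 0.075. With 2 pairs and signs that differ, the numbers were not taken as pairs. The remaining values kept their direction. Where no library was left out, the single genes among them also kept their side of the threshold. The counts of calls in footprints over transcripts did move. Over all settings, 45 to 69 members were called higher and 5 to 12 lower, with a median of 0.62 to 1.75. Shares of all genes are given here only for the settings printed. Precision is limited by 2 libraries a group and by the lower depth of the Y1CTL RNA-seq libraries.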
